A study of Mus musculus with 13 samples.

Results

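Nr3c1, Nr3c2 and Hsd11b1 were followed across the cell types and diet groups of the mouse hippocampus in single-nucleus RNA sequencing data. They were chosen by gene symbol, and they are 3 of the 32285 genes in the deposited matrices. The series holds 13 libraries of nuclei from frozen whole hippocampus of female hybrid mice, each taken here as 1 mouse. The strain is written C3HB6F1 in the sample labels and C3B6F1 in the series text, and no gene was altered in any group. The groups were young_AL (5 months of age, fed ad libitum, n = 3), old_AL (24 months, fed ad libitum, n = 3), old_acuteDR (24 months, dietary restriction from 20 months, n = 3) and old_longDR (24 months, dietary restriction from 5 months, n = 4). Restriction was thus studied in old mice, with no restricted young mice.

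Nr3c1 (ENSMUSG00000024431) lies on chr18:39410545-39519421, minus strand, in GRCm38, the assembly also named mm10, and spans 108.9 kb with 0 overlapping annotated genes. Nr3c2 (ENSMUSG00000031618) lies on chr8:76899442-77245012, plus strand, and spans 345.6 kb. It overlaps 3 annotated genes, of which Gm10649 is in the matrices. Hsd11b1 (ENSMUSG00000016194) lies on chr1:193221634-193264075, minus strand, and spans 42.4 kb. It overlaps 3 annotated genes, of which 4930570N18Rik and Lamb3 are in the matrices. Whether introns were counted, and whether strand was used, are not given in the sources used here, so UMIs of Nr3c2 and Hsd11b1 could not be separated from those of an overlapping gene.

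Nr3c1 encodes the glucocorticoid receptor and Nr3c2 the mineralocorticoid receptor, both of which bind corticosterone, the main glucocorticoid of mice. The mineralocorticoid receptor has the higher affinity and is largely occupied at resting hormone levels, while the glucocorticoid receptor is filled at the daily peak and under stress. Both are ligand-activated transcription factors that move to the nucleus and bind related DNA elements, and the hippocampus is known for holding both. Hsd11b1 encodes the enzyme that turns inert 11-dehydrocorticosterone (cortisone in humans) back into the active hormone inside the cell.

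Promoters were found in the RefSeq table (GRCm38.p6) and are shown for Nr3c2, which was called with age in oligodendrocytes and their precursors, and for Hsd11b1, whose level set astrocytes apart. Each window holds 250 bases before and 50 after the annotated start, at chr8:76902080-76902379 (plus strand) and chr1:193242311-193242610 (minus strand), and both lie inside the longer GENCODE gene spans above. Capitals mark matches to a GC box (GGGCGG) or a CCAAT box (CCAAT) on either strand.
Nr3c2 promoter: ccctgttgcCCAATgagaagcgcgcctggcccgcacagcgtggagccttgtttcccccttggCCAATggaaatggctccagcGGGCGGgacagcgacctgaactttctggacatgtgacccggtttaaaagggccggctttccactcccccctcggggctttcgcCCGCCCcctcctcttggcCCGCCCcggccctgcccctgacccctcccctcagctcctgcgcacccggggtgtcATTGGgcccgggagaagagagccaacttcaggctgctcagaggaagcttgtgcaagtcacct
Hsd11b1 promoter: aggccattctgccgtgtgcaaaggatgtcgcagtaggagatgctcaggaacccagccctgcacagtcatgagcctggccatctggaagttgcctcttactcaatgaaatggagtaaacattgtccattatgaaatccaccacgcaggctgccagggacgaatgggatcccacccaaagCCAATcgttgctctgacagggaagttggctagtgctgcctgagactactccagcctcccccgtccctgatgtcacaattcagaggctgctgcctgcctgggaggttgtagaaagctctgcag

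The Nr3c2 window held 3 GC boxes, 3 CCAAT boxes and 17 CpG dinucleotides, with a GC content of 65.7%, above that of 83.0% of the 32851 windows in the table. The Hsd11b1 window held 0 GC boxes, 1 CCAAT box and 6 CpG, with a GC content of 54.7%. The median window had 7 CpG and a GC content of 52.7%. A GC box was found in 35.7% of all windows and a CCAAT box in 37.4%. Neither window held AGAACA, the half-site of the glucocorticoid response element (found in 19.0% of windows), or TATAAA (13.6%). A match is only a run of letters, and its absence says nothing of a factor elsewhere.

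The libraries held 38546292 to 80538090 UMIs (unique molecular identifiers, each counting 1 captured RNA molecule) and 3524 to 12368 barcodes. After filtering and doublet removal 98041 nuclei were kept. Clustering without the 3 genes, and without the other genes of the pathway, gave 17 classes named by marker genes and holding 76439 nuclei. A class name stands for nuclei that resemble that cell type by those markers, as in astrocyte-like. The other 21602 nuclei, in 30 clusters, stayed unnamed. All 7 markers were raised in the astrocyte, oligodendrocyte and CA1 clusters, all 6 in the precursor cluster, and 4 or 5 of 7 in the 3 granule neuron clusters. Barcode sequences found in 2 or more libraries numbered 1351, with 3 to 40 shared by any pair. The 4 libraries numbered 1 stood apart from the rest: their deviations from the group means correlated with each other (median r = 0.31 over genes and classes, against -0.05 between libraries of different numbers). Young_AL replicate 2 was the shallowest, with a median of 3674.5 UMIs per retained nucleus, and old_AL replicate 1 the deepest, with 11195.

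Nr3c1 was read in all 14 classes that had at least 20 nuclei in at least 6 mice. Among these its level was highest in non-neuronal cells and lowest in CA3 pyramidal neurons. Levels are given in CPM, the UMIs of a gene scaled to a fixed total of UMIs for the class summed within a mouse, as mean ± SD over mice. Microglia, the resident immune cells, held 310.0 ± 60.7 CPM (SD, n = 13), from 210.9 to 395.0 with a median of 335.6. Border-associated macrophages, too few for a level per mouse, held 372 CPM over 140 nuclei (107 UMIs, 95% Poisson interval 305 to 449.7, counting error only). Endothelial cells, which line the vessels, held 286 ± 58.6 (n = 9) and fibroblasts 238 ± 55.4 (n = 9). Oligodendrocytes, the myelinating cells, held 205 ± 40.4 and astrocytes 192 ± 14.4 (n = 13 each). All of these classes lay above every named neuron class in the mean. An unnamed cluster led by Rai14, Hs3st2 and Dpp10 held 211 ± 24.2 CPM (n = 12), above oligodendrocytes and astrocytes. Foxp2, a marker of the subicular or cortical list, was among its leading genes. Among the named neuron classes CA1 pyramidal cells came first with 133 ± 22.5 CPM (n = 13), then Cajal-Retzius neurons with 112 ± 29.4 (n = 7) and subicular or cortical excitatory neurons with 95.8 ± 11.9 (n = 13). Lower levels were read in dentate granule neurons with 76.1 ± 5.64 (n = 13), hilar mossy cells with 56.97 ± 12.7 (n = 8), inhibitory neurons with 52.1 ± 6.13 and CA3 pyramidal cells with 37.9 ± 7.28 (29.4 to 50.4, n = 13 each).

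Neighbours in the order of Nr3c1 levels were compared within mice by exact two-sided sign-flip permutation tests, adjusted over the 39 neighbouring pairs of all 3 genes. Of the 13 pairs for Nr3c1, 4 were separated. Astrocytes lay above oligodendrocyte precursors by 0.39 on the log2 scale, in 12 of 13 mice (exact adjusted p = 0.0063). Inhibitory neurons lay above CA3 neurons by 0.46, in 13 of 13 mice (exact adjusted p = 0.0048). Granule neurons lay above hilar mossy cells and subicular or cortical neurons above granule neurons. The other 9 steps, among them microglia to endothelial cells and endothelial cells to fibroblasts, were not larger than their spread over mice.

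Nr3c2 followed another order, with the principal neurons of the hippocampus and fibroblasts at the top. Fibroblasts held 1293 ± 234 CPM (n = 9), CA1 pyramidal neurons 1235 ± 132 (n = 13), dentate granule neurons 1153 ± 110 (n = 13) and CA3 pyramidal neurons 1108 ± 192 (n = 13). Mural cells of the vessel wall held 604 ± 177 (n = 9), astrocytes 558 ± 89.5 (n = 13) and endothelial cells 540 ± 126 (n = 9). Inhibitory neurons held 438 ± 46.5, microglia 297 ± 71.5, oligodendrocyte precursors 222 ± 34.2 and oligodendrocytes 222 ± 53.4 (n = 13 each), and Cajal-Retzius neurons 172 ± 92.8 (n = 7). Of 13 neighbouring pairs 4 were separated, and the step with the largest log2 difference among these 4 was from CA3 neurons down to mural cells (0.84, 9 of 9 mice, exact adjusted p = 0.0254). CA1 lay above granule neurons by 0.10 (11 of 13 mice, exact adjusted p = 0.0272), while granule neurons and CA3 neurons were not separated (0.07, exact adjusted p = 0.73). An unnamed cluster of 3080 nuclei led by Dcn, Pde11a and Cpne7 had 5 of the 7 CA1 markers raised. It held 906 ± 124 CPM of Nr3c2 (n = 12), below the granule mean. The order of CA1 and granule neurons thus holds only for the CA1 class as named.

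CA2 pyramidal neurons held the highest Nr3c2 level of any named class, but only 70 nuclei of 9 libraries were found, 34 of them in old_longDR replicate 1. Their summed level was 2781 CPM (95% Poisson interval 2673 to 2893, counting error only), from 2483 UMIs, and all 70 nuclei held an Nr3c2 UMI. In the 5 libraries with at least 3 CA2 nuclei, a minimum set after the values were seen, the CA2 level was 2600, 3638, 3125, 3715 and 2694 CPM. It lay above both CA3 and CA1 of the same library in 5 of 5. Nr3c1 stood at 29.1 CPM in CA2 (19.0 to 42.7, from 26 UMIs), and Hsd11b1 had 3 UMIs.

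Within classes Nr3c2 also differed between clusters. The granule neuron cluster led by Il1r1, Dsp and Lct held 1528 ± 103 CPM and the cluster led by Trpc6, Sv2c and Plk5 held 786 ± 62.1, with the first higher in 13 of 13 mice. Nr3c1 showed no such order, being higher in the first cluster in 4 of 13 mice (71.8 ± 10.6 against 78.5 ± 7.05 CPM). The remaining granule cluster held 95.75% of the granule nuclei of young_AL replicate 2 and 31.3% of those of replicate 3, and at most 1.28% elsewhere, young_AL replicate 1 included. Among inhibitory neurons the cluster led by Vip held 697 ± 68.6 CPM of Nr3c2 and the cluster led by Sst 250.3 ± 43.7, again in 13 of 13 mice. Fibroblasts of the cluster led by Slc6a20a and Ranbp3l held 761 ± 212 CPM (n = 7), and the second fibroblast cluster was higher in 4 of 4 mice with both. The first cluster held 558 of the 808 fibroblast nuclei and lay below the CA1, granule and CA3 means. The top place of fibroblasts above thus does not hold for most of their nuclei. Among 13 unnamed clusters with enough nuclei Nr3c2 ranged from 89.1 to 1164 CPM and Nr3c1 from 41.3 to 211.

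Hsd11b1 was highest in astrocytes. These cells held 65.5 ± 19.3 CPM (n = 13, 1345 UMIs), from 42.0 to 113.3 with a median of 61.5. Hilar mossy cells followed with 11.98 ± 8.58 (n = 8, 37 UMIs) and CA3 pyramidal neurons with 10.3 ± 4.81 (n = 13, 325 UMIs). Astrocytes lay above mossy cells by 2.53 on the log2(CPM + 1) scale in 8 of 8 mice (exact two-sided adjusted p = 0.0305), and mossy cells and CA3 neurons were not separated (exact adjusted p = 0.85). Fibroblasts (11.4 ± 9.56, 23 UMIs) and endothelial cells (9.56 ± 8.89, 8 UMIs) rest on few molecules. Inhibitory neurons held 4.01 ± 1.29, granule neurons 2.29 ± 0.68 and CA1 neurons 2.19 ± 0.60 CPM. Cajal-Retzius neurons held 0 UMIs in 301 nuclei, which allows up to 4.85 CPM (3 counts over the class, counting error only).

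The share of nuclei with an Hsd11b1 UMI was also highest in astrocytes at equal depth. After each nucleus was thinned to 1000 UMIs, 6.04 ± 2.20% of astrocytes held one (14.9% unthinned, median depth 2693 UMIs, 52 nuclei too shallow). In CA3 neurons the share was 1.40 ± 1.46% (11.7% unthinned, median 12425 UMIs). CA1 neurons, a deep class with little of the transcript, gave 0.23 ± 0.23% (2.33% unthinned, median 10030 UMIs) and oligodendrocytes 0.25 ± 0.21% (0.41% unthinned, median 1883 UMIs). These 2 classes give the level against which the CA3 share is read, since free RNA can place a UMI in any nucleus. Thinned Nr3c2 shares ran from 14.3% in Cajal-Retzius neurons to 66.3% in CA1 neurons. Within granule neurons the cluster led by Il1r1, Dsp and Lct held 3.46 ± 1.23 CPM of Hsd11b1 and that led by Trpc6 held 0.92 ± 0.45, with the first higher in 13 of 13 mice. An unnamed cluster led by Ano2 and Trhr held 8.99 ± 2.66 CPM of Hsd11b1 beside 964 ± 138 of Nr3c2.

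**Figure D1:**
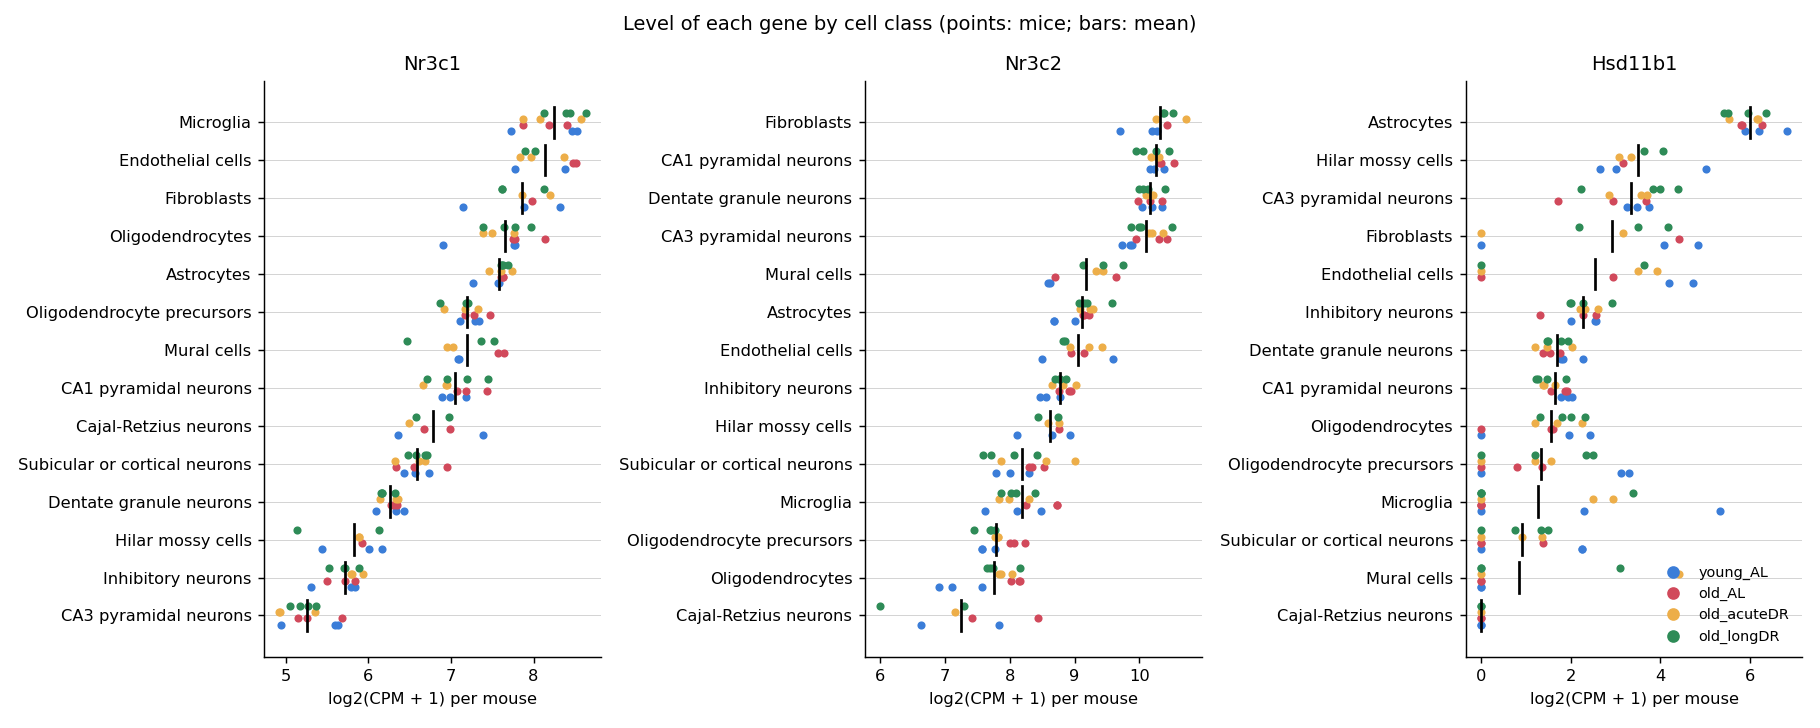
Level of Nr3c1, Nr3c2 and Hsd11b1 in 14 cell classes; the x axis is log2(CPM + 1), each point is 1 mouse coloured by group, and the black bar is the mean over mice. Nr3c1 is highest in microglia and lowest in CA3 neurons, Nr3c2 is highest in fibroblasts and hippocampal principal neurons, and Hsd11b1 in astrocytes lies above all other classes.

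The receptors thus followed different orders over the classes, and their balance was followed as the log2 ratio of Nr3c2 to Nr3c1 UMIs in each mouse. The genes differ in length and capture, so a ratio of 0 does not mean equal expression and only differences between classes or groups are read. Among the 14 classes the ratio was highest in CA3 neurons, at 4.86 ± 0.46 (n = 13). It then fell through granule neurons (3.92 ± 0.09), CA1 neurons (3.22 ± 0.27) and inhibitory neurons (3.07 ± 0.23). Astrocytes stood at 1.53 ± 0.19, oligodendrocyte precursors at 0.59 ± 0.25, oligodendrocytes at 0.10 ± 0.31 and microglia at -0.07 ± 0.49. The CA3 values (4.16 to 5.48) and the microglial values (-0.79 to 0.74) did not overlap. Granule neurons showed the smallest spread over mice among the 14 classes (3.73 to 4.09). CA2 neurons, outside these 14, held 2483 Nr3c2 and 26 Nr3c1 UMIs over 70 nuclei, a higher ratio than in any CA3 mouse. Committed oligodendrocyte precursors, also outside, held 43 Nr3c2 and 54 Nr3c1 UMIs over 99 nuclei. An unnamed cluster led by Ccn2 and Col24a1 held 89.1 and 144 CPM (n = 8). Both of these ratios lay below the microglial mean.

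**Figure D2:**
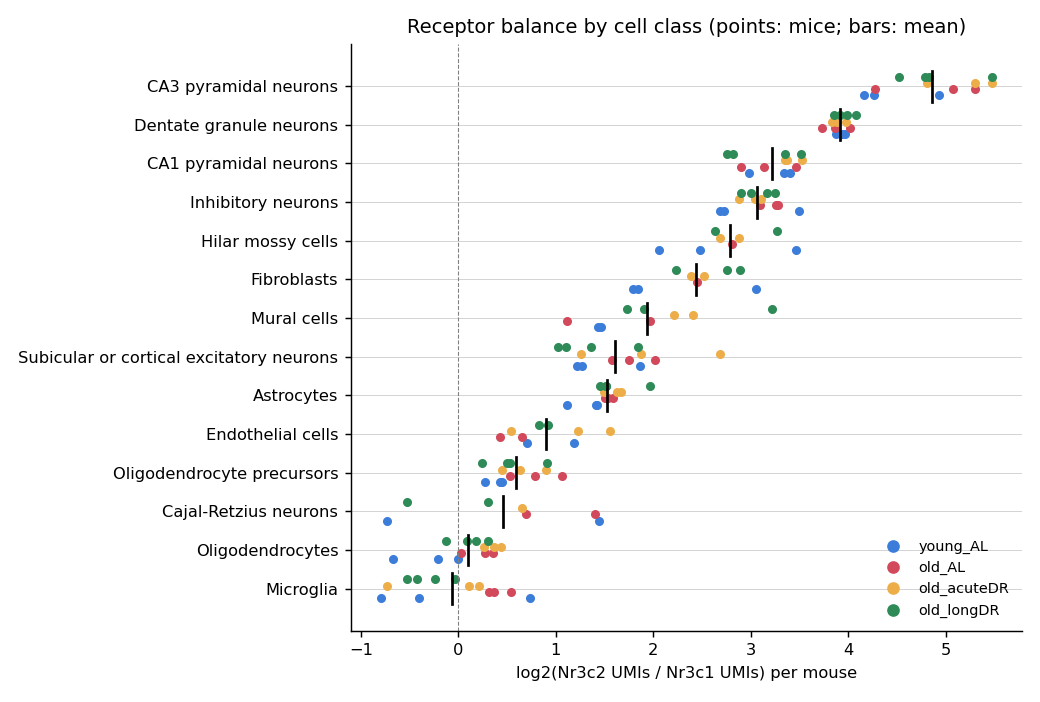
Log2 ratio of Nr3c2 to Nr3c1 UMIs on the x axis for 14 cell classes; points are mice coloured by group and black bars are means. CA3 pyramidal neurons, at 4.86 on average, lie at one end and microglia, at -0.07, at the other, with all granule neuron values between 3.73 and 4.09.

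Genes with the most similar profile over the 14 classes were listed for each gene, as a description. For Nr3c1 these were Zfand6 (Pearson r = 0.91), Kdm3a, Vrk2, Kat6a and Sgk3, all of them highest in microglia. For Nr3c2 they were Prkag2 (r = 0.88), a regulatory subunit of AMP-activated protein kinase, then Ptpn3, Nup93, Adcy9 and Sntb2 (r = 0.80). For Hsd11b1 they were Fam107a (r = 0.96), BC006965, Gm36037, Gm973 and Acat3 (r = 0.94), all highest in astrocytes. The class values share libraries and depth, and 14449 genes were compared. Nr3c1 and Nr3c2 themselves had r = -0.19.

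Ageing was read from old_AL against young_AL mice, on UMIs summed per mouse and class, with edgeR's quasi-likelihood test over all genes of a class and Benjamini-Hochberg adjustment. Nr3c1 and Nr3c2 passed the filter on low counts in 11 classes each and Hsd11b1 in 5, which makes 27 tests per comparison. Of these, 2 passed an adjusted p of 0.05, both for Nr3c2 and both higher in old mice, in oligodendrocytes and in their precursors. Over all genes and the 11 classes 1.62% of 105428 tests passed in ageing. Where the 2 groups are said below not to overlap, such a split has an exact permutation p of 0.1 with 3 mice against 3. The share of all genes with such a split was not counted.

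In oligodendrocytes the Nr3c2 level was 118, 136 and 188 CPM in young_AL mice and 285, 280.1 and 259 in old_AL mice. The lowest young value came from 11 UMIs in 48 nuclei of young_AL replicate 1, beside 124 and 196 UMIs in the other young_AL mice. The groups did not overlap, and old_acuteDR (228, 261 and 232 CPM) and old_longDR mice (212, 205, 284 and 199.6) also lay above every young mouse. The log2 fold change of old_AL over young_AL was 0.84 ± 0.17 (SE), with a 95% interval of 0.50 to 1.18 (edgeR adjusted p = 0.0022). In this class 3.57% of genes were called higher in old mice. The share of oligodendrocytes with an Nr3c2 UMI at 1000 UMIs per nucleus was 12.01 ± 3.48% in young_AL mice (8.33 to 15.2%) and 20.8 ± 1.87% in old_AL mice (18.7 to 22.3%), again without overlap.

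In oligodendrocyte precursors Nr3c2 stood at 188, 189 and 218 CPM in young_AL mice and at 257, 298 and 268 in old_AL mice. Here the old_AL mice lay above every young mouse, by a log2 fold change of 0.52 ± 0.13 (95% interval 0.26 to 0.79, edgeR adjusted p = 0.0315), where 0.998% of genes were called higher. The thinned share was 16.2 ± 1.93% in young_AL and 25.2 ± 1.92% in old_AL mice. All 7 restricted mice lay below the old_AL mice, at 218, 223 and 224 CPM in old_acuteDR and at 174, 218, 209 and 206 in old_longDR mice. Unlike in oligodendrocytes, old_longDR mice overlapped the young_AL mice. The lowest old_acuteDR mouse (217.6 CPM) lay level with the highest young_AL mouse (217.7), and the other old_acuteDR mice lay above every young_AL mouse.

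Several values moved with these calls. Nuclei of old_AL mice were deeper, with a median of 1987 to 3161 UMIs per oligodendrocyte against 1181 to 1743 in young_AL mice, and of 3403.5 to 5991 per precursor against 1905.5 to 2841. With the median depth as a covariate the log2 fold change was 0.52 in oligodendrocytes (edgeR adjusted p = 0.72) and 0.51 in precursors (edgeR adjusted p = 0.53). With the trend of counts on gene length removed from each library it was 0.33 (adjusted p = 0.37) and 0.27 (adjusted p = 0.45), and Nr3c2 is a long gene. With nuclei of at least 1000 genes the call was lost in oligodendrocytes (0.72, edgeR adjusted p = 0.0507). Without young_AL replicate 2, the shallowest library, both calls were lost (0.72 and 0.49, edgeR adjusted p = 0.068 and 0.14), and the call in precursors was also lost without old_AL replicate 2 (0.47, adjusted p = 0.15) or replicate 4 (0.57, adjusted p = 0.075). Between the libraries numbered 1 the difference in mean log2 CPM was 1.26 in oligodendrocytes, with only 11 UMIs in young_AL replicate 1, and 0.44 in precursors. Among the others it was 0.74 and 0.48. In an edgeR fit without those 4 libraries both calls stood (0.73 and 0.54, adjusted p = 0.0202 and 0.0397).

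Genes of the neuron marker lists were also read in the oligodendrocyte sums. The lists served to name clusters, and whether glia express a listed gene themselves was not tested. The CA1 sum was far larger in oligodendrocytes than in precursors of the same groups, so the sums do not measure neuronal RNA alone. The 7 CA1 markers summed to 2357 to 3242 CPM in young_AL and 2468 to 3747 in old_AL mice, and the 7 granule neuron markers to 756 to 937 and 916 to 929. Of the CA1 markers 7 were tested in ageing, 5 were positive and 0 were called, with a median log2 fold change of 0.82. Of the granule markers 5 were tested, 4 were positive and 1 was called higher. In precursors the CA1 markers summed to 278 to 329 CPM in young_AL and 337 to 485 in old_AL mice, and 5 of 5 tested were positive with 0 called. The 7 oligodendrocyte markers summed there to 98.0 to 143 CPM in young_AL and 134 to 186 in old_AL mice, with 3 of 3 tested positive and 0 called (median log2 fold change 0.81). The 7 astrocyte markers in oligodendrocytes summed to 237 to 506 and 301.5 to 321 CPM, with 1 of 6 tested positive and 1 called lower (median -0.49). None of these markers was at 0, and their part in the Nr3c2 values was not tested.

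In the other classes Nr3c2 was not called. Its ageing estimate was positive in 10 of 11 classes, with a median log2 fold change of 0.37 over the 11. The sign depended on the scaling in granule neurons, where the mean CPM was 1178 in young_AL and 1156 in old_AL mice, and in endothelial cells, where the estimate was -0.15 and the mean log2 CPM was 9.04 in young_AL and 9.05 in old_AL mice (n = 2 each). In astrocytes young_AL mice held 410.0, 409 and 510.4 CPM and old_AL mice 559, 562 and 593 CPM, without overlap, and the log2 fold change was 0.37 ± 0.14 (edgeR adjusted p = 0.25). The share of astrocytes with an Nr3c2 UMI at 1000 UMIs per nucleus did overlap (30.3 to 42.8% in young_AL and 40.2 to 43.2% in old_AL mice). In these astrocyte sums the 7 granule neuron markers stood at 845 to 894 CPM in young_AL and 1103.5 to 1355 in old_AL mice (2 of 5 tested positive, median log2 fold change -0.55), and the 7 CA1 markers at 152 to 243 and 243 to 441 CPM (6 of 6 positive, median 0.68), with 0 called by edgeR and 0 at 0. As in oligodendrocytes, these sums do not measure neuronal RNA alone. The part of these markers in the astrocyte values was not tested. In CA3 neurons young_AL mice held 849, 949 and 921 CPM and old_AL mice 984, 1259 and 1381, with 0.46 ± 0.18 (adjusted p = 0.29). Inhibitory neurons gave 0.37 ± 0.12 (edgeR adjusted p = 0.15). Granule neurons (0.14, 95% interval -0.19 to 0.47) and CA1 neurons (0.19, -0.13 to 0.52) gave intervals that leave room for both directions.

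**Figure D3:**
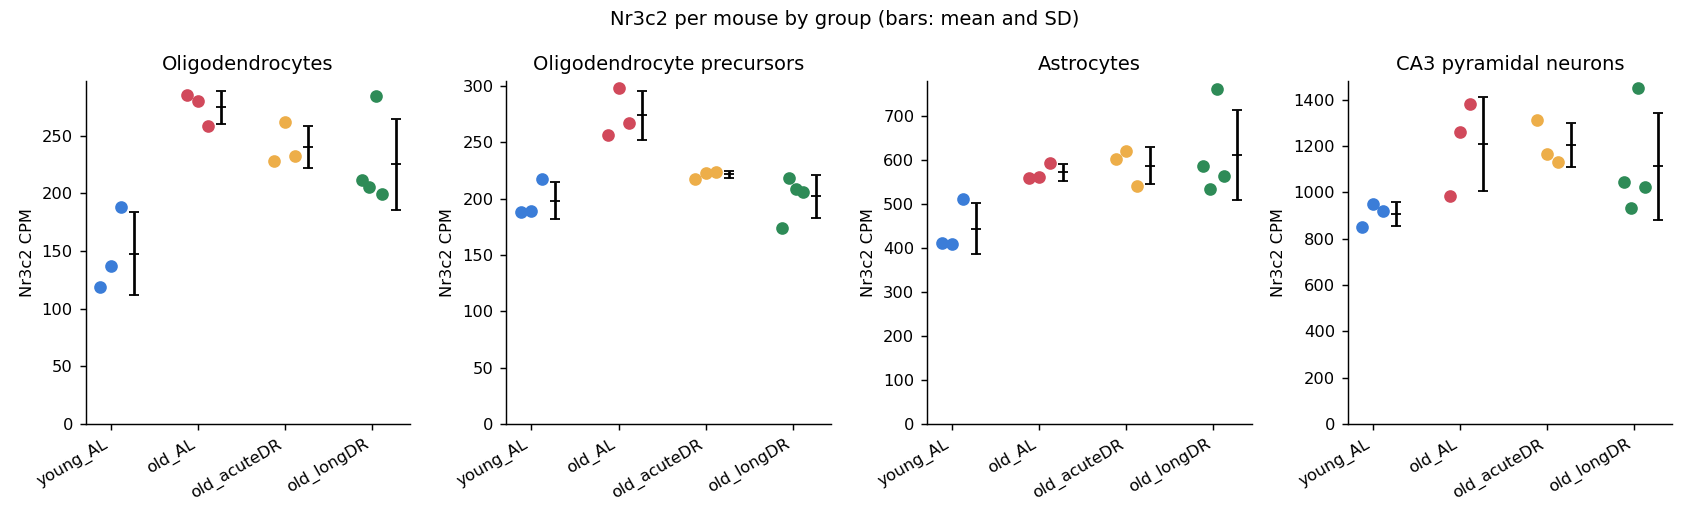
Nr3c2 level in CPM on the y axis for the 4 groups in oligodendrocytes, oligodendrocyte precursors, astrocytes and CA3 pyramidal neurons; points are mice, and the black bars give mean and SD. In oligodendrocytes the 3 young_AL mice (118 to 188 CPM) lie below all 10 old mice (199.6 to 285 CPM), and in precursors the old_AL mice (257 to 298 CPM) lie above the other groups. The lowest oligodendrocyte point, young_AL replicate 1, rests on 11 UMIs.

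Nr3c1 was not called with age in any of the 11 classes. Its estimates lay between -0.17 in microglia and 0.49 in mural cells, positive in 10 of 11, with 0 at an unadjusted p below 0.05 (smallest edgeR adjusted p = 0.36). Of all genes, 4531 of 16568 in granule neurons and 2471 of 11372 in oligodendrocytes stood below that cut with age. In CA3 neurons the sign depended on the scaling, with an estimate of 0.05 and a mean log2 CPM of 5.39 in young_AL and 5.36 in old_AL mice. In granule neurons, where the counts are largest, the log2 fold change was 0.18 with a 95% interval of -0.10 to 0.45. Its size depended on the scaling, as the mean CPM there was 77.5 in young_AL and 78.4 in old_AL mice. In oligodendrocytes the log2 fold change was 0.23 (-0.15 to 0.62), with 118, 218 and 217 CPM in young_AL and 279.7, 219 and 214 CPM in old_AL mice. The low young value came from 11 UMIs in 48 nuclei of young_AL replicate 1.

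Hsd11b1 was not called with age in any of the 5 classes tested, and all 5 estimates were negative (-0.46 to -0.12), with 0 at an unadjusted p below 0.05. Below that cut stood 1667 of 11506 genes in astrocytes and 1598 of 11445 in CA3 neurons. In granule neurons, where the groups did not overlap, the estimate was -0.39 (edgeR adjusted p = 0.42). Within the granule clusters the groups overlapped, at 3.89 ± 0.90 CPM in young_AL and 3.48 ± 1.50 in old_AL mice in the cluster led by Il1r1, and at 0.58 ± 0.57 and 0.78 ± 0.28 in that led by Trpc6. Astrocytes of young_AL mice held 113.3, 58.6 and 73.5 CPM and those of old_AL mice 56.2, 54.7 and 76.2, so the groups overlapped. The share of astrocytes with an Hsd11b1 UMI at 1000 UMIs per nucleus did not overlap, at 6.95 to 10.5% in young_AL and 4.71 to 6.10% in old_AL mice. The log2 fold change was -0.44 ± 0.29 (95% interval -1.06 to 0.18, edgeR adjusted p = 0.52). The difference was -0.999 between the 2 libraries numbered 1 and -0.024 among the others. CA3 neurons gave -0.46 (-1.51 to 0.59).

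Restriction was read in old mice only, and the long-term and the acute comparison share the 3 old_AL mice as controls. The ageing comparison rests on the same 3 old_AL mice. In neither restriction comparison was any of the 27 tests called by edgeR. Over all genes, 0.0408% of tests passed under long-term and 0.212% under acute restriction, so few calls of any kind were made. The comparison of old_longDR with old_acuteDR gave 0 calls among the 27 as well, with 0.0104% called over all genes. At an unadjusted p below 0.05 there were 2 values under long-term restriction, 3 under acute restriction and 0 between the restricted groups, and DESeq2 called 0 in each. In the classes of the 2 long-term values, 555 of 9121 genes in precursors and 247 of 4208 in microglia stood below this cut. For the 3 acute values it was 499 of 12848 genes in CA1 neurons, 205 of 4208 in microglia and 591 of 9121 in precursors.

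The value with the smallest adjusted p among these was Nr3c2 in oligodendrocyte precursors under long-term restriction. The 4 old_longDR mice (174 to 218 CPM) lay below the 3 old_AL mice (257 to 298), with a log2 fold change of -0.43 ± 0.12 (95% interval -0.66 to -0.19, edgeR adjusted p = 0.22). Under acute restriction it was -0.28 ± 0.12 (edgeR adjusted p = 0.69), with 218 to 224 CPM. Nr3c2 had been called with age in precursors from the same high old_AL mice, so these lower values are not independent of that call. Median depth per precursor was 3403.5 to 5991 UMIs in old_AL, 3185 to 4631 in old_longDR and 2984.5 to 3764 in old_acuteDR mice. In microglia Nr3c2 gave -0.45 ± 0.20 under long-term (edgeR adjusted p = 0.82) and -0.49 ± 0.20 under acute restriction (adjusted p = 0.94). In oligodendrocytes it gave -0.29 ± 0.14 and -0.24 ± 0.15 (edgeR adjusted p = 0.55 and 0.63).

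Nr3c1 gave -0.40 ± 0.16 in CA1 neurons under acute restriction (edgeR adjusted p = 0.9997), where old_acuteDR mice held 121, 122 and 100.3 CPM and old_AL mice 134, 144 and 172, without overlap. The share of all genes without overlap between these groups was not counted. In oligodendrocytes Nr3c1 gave -0.34 ± 0.18 under acute restriction (edgeR adjusted p = 0.49). Hsd11b1 in astrocytes gave -0.02 (95% interval -0.61 to 0.57) under long-term and 0.07 (-0.56 to 0.69) under acute restriction. Old_longDR mice held 82.0, 42.0, 61.5 and 45.0 CPM and old_acuteDR mice 70.9, 72.0 and 45.4, which overlap the old_AL values. In CA3 neurons Hsd11b1 gave 0.89 ± 0.45 under long-term restriction (-0.06 to 1.83), from 2 to 63 UMIs per mouse.

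**Figure D4:**
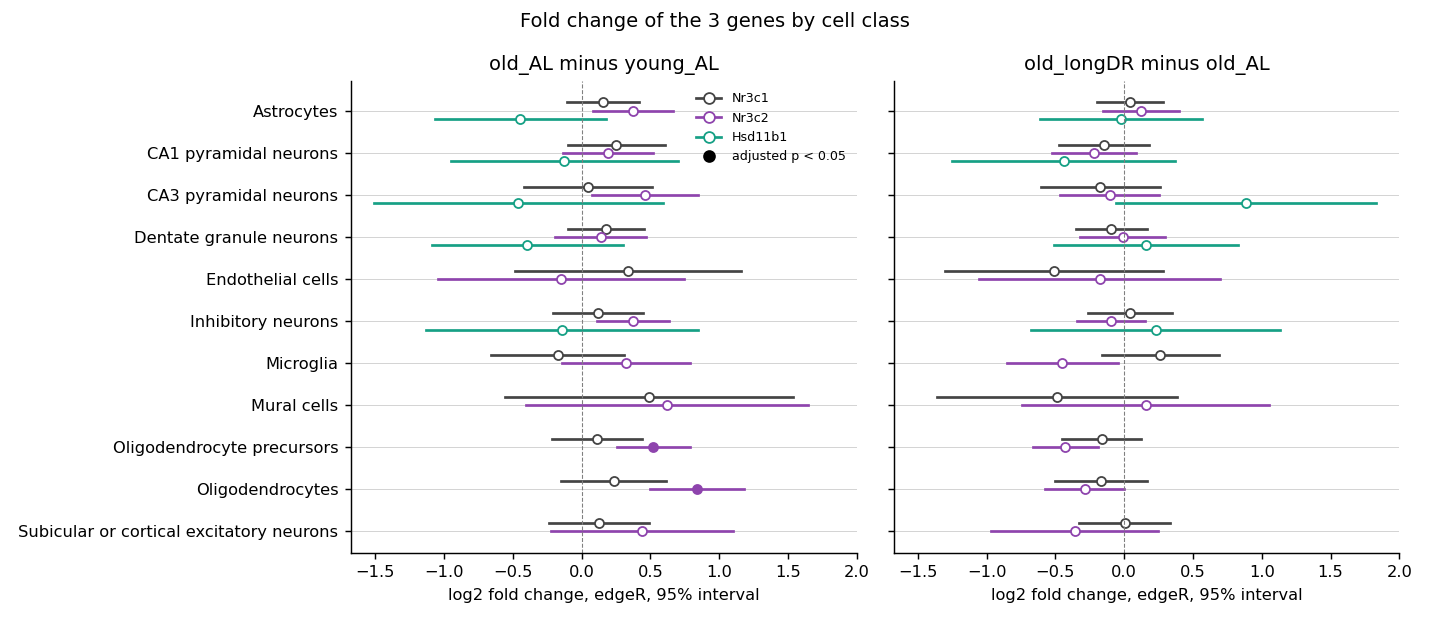
Log2 fold change of Nr3c1, Nr3c2 and Hsd11b1 on the x axis with 95% intervals from edgeR in 11 cell classes, for old_AL minus young_AL on the left and old_longDR minus old_AL on the right; filled points pass an adjusted p of 0.05. Only Nr3c2 with age in oligodendrocytes (0.84) and precursors (0.52) is filled among the values shown.

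The ratio of Nr3c2 to Nr3c1, which needs no scaling to library totals, was compared over groups in 62 combinations of class and contrast. Exact two-sided permutation tests were used. The genes differ in length, so the ratio is not free of a library trend on gene length, which was not removed here. After adjustment over the 62, 0 passed, and 3 had an unadjusted exact p below 0.05. With 3 mice against 3 the smallest possible p is 0.1, so all 10 old mice were also set against the 3 young ones, which can reach 0.0035. A single combination at 0.0035 would still fail the adjustment over the 62. The 0 that passed therefore cannot show that the ratio was unchanged. In oligodendrocytes the log2 ratio was 0.22 ± 0.18 in old and -0.29 ± 0.34 in young mice (exact permutation p = 0.0070, adjusted p = 0.33). In astrocytes it was 1.59 ± 0.15 in old and 1.32 ± 0.17 in young mice (exact permutation p = 0.0105, adjusted p = 0.33), and every old mouse lay above every young one. In microglia old_longDR mice had -0.31 ± 0.22 and old_AL mice 0.41 ± 0.12 (exact permutation p = 0.0286, the smallest that 4 against 3 allows, adjusted p = 0.59).

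The other genes of corticosteroid signalling were read from 5 lists, chosen with earlier results of these data known. The steroid handling list had 9 genes in the matrices, of which 7 were tested. Hsd11b2, the enzyme that inactivates the hormone, was nearly absent, with 46 UMIs in all and at most 0.23 CPM in any class. Abcb1a, an efflux transporter of the blood-brain barrier, stood at 900.1 CPM in endothelial cells. H6pd, which supplies the cofactor of Hsd11b1, was highest in mural cells at 18.8 CPM. Of 41 tests in ageing 1 was called, Cyp7b1, a steroid hydroxylase, in oligodendrocytes, at 12.8 ± 1.85 CPM in young_AL and 25.1 ± 4.90 in old_AL mice (n = 3 each, log2 fold change 0.98 ± 0.30, edgeR adjusted p = 0.0417), beside 1.62% of all tests. This call was made in 11 of 24 alternatives. It was lost with DESeq2 (0.95, adjusted p = 0.27), the replicate block (1.03, edgeR adjusted p = 0.059), the length trend removed (0.67, adjusted p = 0.27) and depth as a covariate (1.14, adjusted p = 0.63), and without old_AL replicate 2 or 4, any 1 of the young_AL replicates, or old_acuteDR replicate 2 or 3. No test of this list was called by edgeR under restriction.

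Of the 17 chaperones and co-regulators of the receptors, Ncoa2, a coactivator of steroid receptors, was higher with age in granule neurons (0.55 ± 0.11, edgeR adjusted p = 0.0338) and oligodendrocytes (0.56 ± 0.13, adjusted p = 0.0073), 2 of 170 tests beside 1.62% of all tests. With the length trend removed the log2 fold change was 0.38 and 0.12 (edgeR adjusted p = 0.086 and 0.84), and with depth as a covariate 0.43 and 0.42 (adjusted p = 0.58 and 0.72). Without old_AL replicate 2 or young_AL replicate 2 neither was called, and the granule call was also lost without old_AL replicate 1 or 4, old_acuteDR replicate 2 or old_longDR replicate 4. Granule calls compare young_AL mice, of which replicates 2 and 3 had 95.75% and 31.3% of granule nuclei in 1 cluster, with old_AL mice that had at most 0.42% there, and Ncoa2, Esrrg and Zbtb16 were not tested within clusters. Fkbp5, the co-chaperone that lowers receptor affinity, belongs to this list and to the response list below. It accounts for the 2 calls of this list in 170 tests of acute restriction, beside 0.212% of all tests. Among the 7 related nuclear receptors, Esrrg, an orphan receptor, was higher with age in astrocytes (1.10 ± 0.17, edgeR adjusted p = 0.0052) and granule neurons (0.69 ± 0.17, adjusted p = 0.0458), 2 of 37 tests beside 1.62% of all tests. Both were lost with depth as a covariate (0.93 and 0.43, edgeR adjusted p = 0.31 and 0.63) and with the length trend removed (0.78 and 0.43, adjusted p = 0.22 and 0.12). The Esrrg call in astrocytes was made in 22 of 24 alternatives and that in granule neurons in 11, being lost there with median-ratio size factors, in 9 of the 13 fits that left out 1 library, and without the 4 libraries numbered 1. The 5 genes of the corticotropin-releasing hormone system gave 0 calls in 8 tests per comparison by edgeR.

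Genes of the glucocorticoid response list, which has 16, were called under acute restriction in oligodendrocytes and their precursors. In oligodendrocytes 14 were tested and 6 rose, 0 fell, with a median log2 fold change of 1.26 beside -0.01 over all genes, and 0.765% of all genes were called higher there. The list was chosen with earlier results of these data known, so these values describe it and do not test it. Sgk1, a kinase induced by the hormone, stood at 258, 217 and 371 CPM in old_acuteDR mice against 61.6, 37.0 and 30.5 in old_AL mice (2.87 ± 0.59, edgeR adjusted p = 0.0452). Fkbp5 stood at 152, 188 and 252 against 77.0, 23.9 and 39.4 CPM (2.40 ± 0.44, edgeR adjusted p = 0.0240). Nfkbia, an inhibitor of NF-kappaB (2.00 ± 0.36), Per1, a clock gene (1.55 ± 0.29), Cdkn1a, a cell cycle inhibitor (2.23 ± 0.59), and Tsc22d3, also called GILZ (0.61 ± 0.16), were called as well (edgeR adjusted p = 0.0013, 0.0017, 0.0488 and 0.0429). Oligodendrocyte nuclei of old_acuteDR mice were shallower (median 1577 to 1887 UMIs) than those of old_AL mice (1987 to 3161), and with depth as a covariate none of the 6 was called (edgeR adjusted p from 0.24 to 0.55). The log2 fold changes in that fit were 2.52 for Fkbp5, 2.21 for Sgk1, 2.08 for Cdkn1a, 1.46 for Nfkbia, 1.14 for Per1 and 0.58 for Tsc22d3. Without the 4 libraries numbered 1, Sgk1 (3.06, edgeR adjusted p = 0.050) and Cdkn1a (2.13, adjusted p = 0.055) were not called and the other 4 were.

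The 6 calls in oligodendrocytes differed in how often the alternatives made them. Per1 and Nfkbia were each called in 23 of 24, with depth as the exception. Fkbp5 was called in 19 of 24 and was also lost without old_acuteDR replicate 2 or 3 or old_AL replicate 2 or 4. Sgk1 was called in 9 of 24, Cdkn1a in 10 of 23 and Tsc22d3 in 14 of 24. With the length trend removed these 3 were not called, at log2 fold changes of 2.96, 2.18 and 0.63 (edgeR adjusted p = 0.069, 0.060 and 0.11). With the replicate block Sgk1 (2.98) and Cdkn1a (2.05) were not called (edgeR adjusted p = 0.072 and 0.056), and with DESeq2 Tsc22d3 (0.61) was not (adjusted p = 0.15). Leaving out old_acuteDR replicate 2 or 3, any 1 of the old_AL replicates or old_longDR replicate 2 ended all 3 of these calls. Sgk1 was also lost without old_acuteDR replicate 1, any 1 of the young_AL replicates or old_longDR replicate 4, Cdkn1a without old_acuteDR replicate 1 or young_AL replicate 1, and Tsc22d3 without old_longDR replicate 4. Both receptors had negative estimates in the same cells, as given above.

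Fkbp5 was also higher under acute restriction in precursors (84.98 ± 17.2 against 40.0 ± 8.42 CPM, n = 3 each, log2 fold change 1.11 ± 0.20, edgeR adjusted p = 0.0119). This call was lost with depth as a covariate (0.97, edgeR adjusted p = 0.17) and without old_acuteDR replicate 3 or old_AL replicate 1 or 2. In precursors 9 of 9121 genes were called higher under acute restriction. The 7 calls were all that this list gave in 102 tests of acute restriction, beside 0.212% of all tests. Under long-term restriction 0 of 102 were called, beside 0.0408% of all tests. Fkbp5 in oligodendrocytes of old_longDR mice stood at 103, 43.1, 36.5 and 65.0 CPM (0.52 ± 0.45, edgeR adjusted p = 0.83). The difference between the restricted groups in Fkbp5 there was -1.88 for old_longDR minus old_acuteDR and was not called (edgeR adjusted p = 0.18). With age 2 were called, Zbtb16, a transcription factor, higher in granule neurons (0.57 ± 0.13, edgeR adjusted p = 0.0410) and Cebpd, a transcription factor, lower in oligodendrocytes (-1.50 ± 0.41, adjusted p = 0.0219), beside 1.62% of all tests. The Cebpd call was lost with DESeq2 (-1.45, adjusted p = 0.16), the replicate block (-1.35, edgeR adjusted p = 0.062), the length trend removed (-1.06, adjusted p = 0.11) and depth as a covariate (-0.69, adjusted p = 0.93), and without old_AL replicate 2 or 4 or young_AL replicate 2. The Zbtb16 call was made in 15 of 24 alternatives and lost with the length trend removed (0.42, edgeR adjusted p = 0.16) and depth as a covariate (0.29, adjusted p = 0.63), and without young_AL replicate 2, any 1 of the old_AL replicates, old_acuteDR replicate 2 or 3, or old_longDR replicate 4. Without the 4 libraries numbered 1, 43 tests of the 5 lists were called in all in place of 14, and with depth as a covariate 1 was, which is none of the 14. The count was 7 without old_acuteDR replicate 2, old_AL replicate 1 or young_AL replicate 2, 6 without old_acuteDR replicate 3, 5 without old_AL replicate 4 and 3 without old_AL replicate 2.

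**Figure D5:**
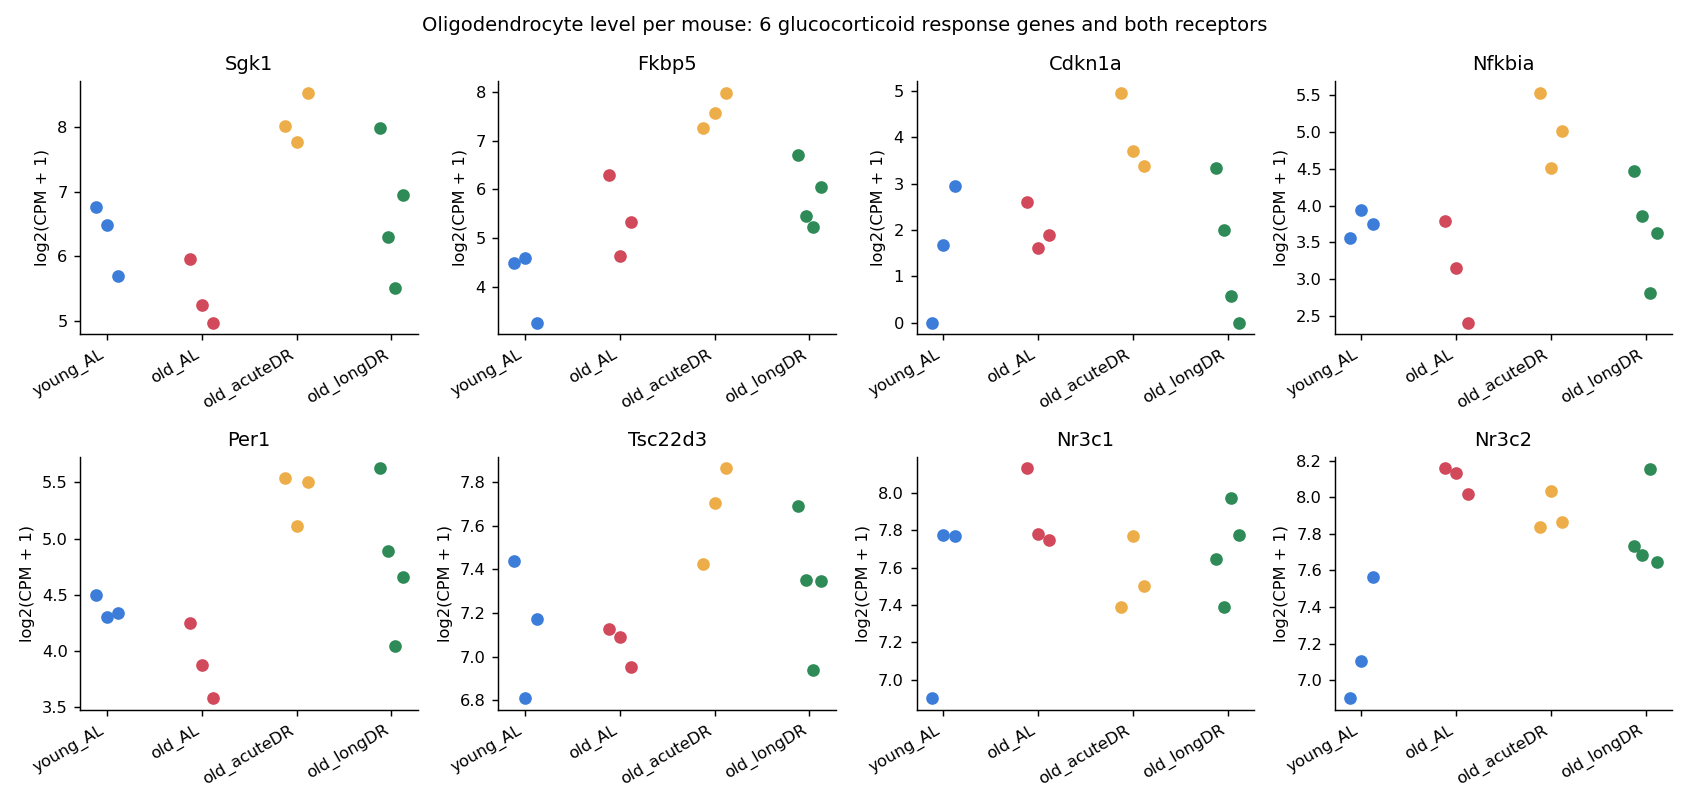
Level in oligodendrocytes, as log2(CPM + 1) on the y axis, of 6 glucocorticoid response genes and of Nr3c1 and Nr3c2 in the 4 groups; points are mice, and each panel has its own scale that does not start at 0. In the 6 response genes, plotted because they were called, the old_acuteDR mice lie above the old_AL mice, while Nr3c1 and Nr3c2 show no such step.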

How the data were processed

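Nuclei were profiled with 10x Genomics 3′ chemistry per the labels' protocols. The authors deposited raw UMI counts for each gene and barcode. Cell Ranger 4.0.0 and build mm10 are named per the submitters' processing notes. Counting of introns, use of strand and correction for free RNA are not given in the sources used here. Barcodes needed 500 or more genes and no more than 5% of UMIs from mitochondrial genes, and 7.01% were removed as doublets by score. Clustering used 2000 variable genes, 30 components, 20 neighbours and leidenalg 0.10.2 at resolution 1. A cluster was named where at least 3 markers and at least 50% of its list were raised, the second being set after the data were seen. UMIs were summed per mouse and class (at least 20 nuclei) and tested with edgeR 4.0.16 (TMM, filterByExpr, robust quasi-likelihood) over all 13 mice, with DESeq2 1.42.0 as an alternative, after a test on simulated data. The p-values measure the spread between these libraries. Gene spans came from GENCODE and promoters from RefSeq. The named genes were the 3 genes, every called gene of the lists and the 5 most similar genes of each. Genes and lists were chosen with earlier results of these data known.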

Additional observations from a re-analysis of the deposited data

Results flagged for a closer look

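In the group of 4 mice, old_longDR, 32 values were tested for a library far from the others by Dixon's ratio, and 4 passed its 95% critical value. Chance flags about 1 in 20. The log2 CPM of Nr3c1 in granule neurons was 6.32 in replicate 1 (1761 UMIs), with the nearest other mouse at 6.17. The log2 CPM of Nr3c1 in oligodendrocyte precursors was 6.87 in replicate 2 (75 UMIs), below the others, of which the nearest was at 7.19. The log2 CPM of Nr3c2 in oligodendrocytes was 8.16 in replicate 3 (569 UMIs), with the nearest at 7.73. In astrocytes the log2 ratio of Nr3c2 to Nr3c1 was 1.97 in replicate 3, with the nearest at 1.52.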

How the results depend on the processing

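Over the 24 alternatives for each, the ageing estimate of Nr3c2 stayed positive, from 0.33 to 1.09 in oligodendrocytes (called in 20) and from 0.27 to 0.63 in precursors (called in 19). For ageing the 2 calls of the 3 genes became 0 with median UMIs per nucleus as a covariate, 0 with the gene length trend removed and 1 with at least 1000 genes per nucleus, and leaving out 1 replicate gave 0 to 2. Both restriction comparisons, and the one between them, gave 0 calls under every alternative run. The 14 calls of the pathway lists became 30 with no filter on low counts, 54 with a term for the libraries numbered 1, 1 with depth as a covariate, 4 with the length trend removed and 43 without the 4 libraries numbered 1 (chosen after seeing the data), and leaving out 1 replicate gave 3 to 19. The cause was not tested. The 10 separated neighbours became 5 with the mean of nuclei scaled to their own totals, and the astrocyte share with Hsd11b1 was 3.42% when thinned to 500 UMIs in place of 1000, as fewer molecules were kept. Replicate numbers were not taken as pairing the samples, since not every pair correlated: the median correlation of deviations was 0.31 for number 1, 0.04 for number 2, 0.03 for number 3 and 0.18 for number 4, against -0.05 for different numbers. With the replicate block 37 pathway tests were called, and Nr3c2 gave 1.01 in oligodendrocytes and 0.56 in precursors, both called by edgeR. In microglia Hsd11b1 rests on 9 UMIs, and its highest value, 39.1 CPM, is 1 UMI in 20 nuclei of young_AL replicate 1.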
